A study of Mus musculus with 16 samples.

Results

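miR-103-3p and miR-107-3p are a pair of near-identical microRNAs (miRNAs) that lie within genes for pantothenate kinases and have been tied to insulin sensitivity. They were chosen by name, as the rows named mmu-miR-103-3p and mmu-miR-107-3p on the mouse miRNA array, and are 2 of the 1881 miRNAs on it. Serum was taken from male mice at 4, 8, 36 and 58 weeks of age, with 4 replicates per age. From each serum 1 ng of RNA was labelled with the single dye Cy3 and hybridised to 1 Agilent miRNA array, which gives 16 arrays. No strain, diet or treatment that would set the groups apart is given in the labels, and age is the one labelled difference between them. The labels do not say outright that the 4 replicates of an age are separate animals, so p-values measure the spread between these samples.

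A miRNA guides Argonaute proteins to messenger RNAs that pair with its seed, bases 2 to 8 from the 5′ end, and lowers their translation and stability. The pantothenate kinases, whose genes host these miRNAs, catalyse the first step of coenzyme A synthesis, on which fatty acid and acetyl metabolism depend. In mouse liver and fat, miR-103 and miR-107 are known to lower insulin sensitivity, with caveolin-1, a membrane protein that stabilises the insulin receptor, as a target there. In serum, miRNAs travel in vesicles, in Argonaute complexes and with lipoproteins, and come from many tissues and from blood cells. In such bulk samples, fewer cells that release a miRNA and less of it released per cell cannot be told apart.

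The mature sequences show how close the members are, and which part of them pairs with targets. They are RefSeq's on the mouse assembly GRCm38.p6, written 5′ to 3′, with the seed in capitals.
miR-103-3p: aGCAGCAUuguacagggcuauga
miR-107-3p: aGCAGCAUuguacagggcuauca
Both are 23 bases long, share their first 21 bases in a row and differ at 1 position, G22C (the base of miR-103-3p first, counted from 1 at the 5′ end). Among 1679 mature names in the RefSeq table, these 2 are the ones with this seed. miR-103-3p is encoded at 2 loci, chr11:35782447-35782469 on the plus strand, in hairpin Mir103-1 within Pank3, and at chr2:131288103-131288125 on the plus strand, in hairpin Mir103-2 within Pank2. miR-107-3p is encoded at chr19:34820700-34820722 on the minus strand, in hairpin Mir107 within Pank1. Each hairpin lies inside its host gene's span and on its strand. Which of the 2 hairpins made the miR-103-3p in serum cannot be told from the arrays, since both give the same mature sequence.

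A second set of sequences shows the wider family by its seed, AGCAGCA, in capitals. These letters are bases 1 to 7 of miR-103-3p and miR-107-3p, so the pair carries the same letters 1 base nearer to the 5′ end.
miR-15a-5p: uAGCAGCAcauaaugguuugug
miR-15b-5p: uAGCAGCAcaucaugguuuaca
miR-16-5p: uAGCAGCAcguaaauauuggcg
miR-497a-5p: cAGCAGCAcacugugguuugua
Of the mature names in RefSeq, 10 have this seed. The members of this family are known for holding back cell cycle genes.

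Arrays differed in background, which bears on dim signals such as those of both members. The SD of negative-control spots ran from 1.82 to 4.45 on 13 arrays. It reached 59.3 (replicate 4 of 36 weeks), 19.1 (replicate 1 of 4 weeks) and 7.45 (replicate 4 of 4 weeks) on the remaining 3. The Feature Extraction software, which turned the array images into intensities, had marked these 3 for evaluation. No spot was saturated. Arrays of 4 and 8 weeks lay on slide 1 and those of 36 and 58 weeks on slide 2, so that 8 against 4 weeks and 58 against 36 weeks are the pairs within a slide. For the 4 remaining pairs, a difference of age cannot be told apart from one of slide. The trend and the F test span both slides, so slide is partly confounded with age in them too.

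Both members were near the detection limit in serum. miR-103-3p was detected on 9 of 16 arrays: 2 of 4 at 4 weeks, 3 of 4 each at 8 and 36 weeks, and 1 of 4 at 58 weeks. miR-107-3p was detected on 12 of 16 arrays, 3 of 4 at every age. On 9 arrays both were detected, on 3 arrays miR-107-3p alone, on 0 arrays miR-103-3p alone, and on 4 arrays neither. Those 4 were 1 array per age, namely replicate 1 at 4 weeks, replicate 3 at 8 weeks, replicate 4 at 36 weeks and replicate 2 at 58 weeks. In 3 of the 4 ages that array had the highest SD of negative-control spots of its age, and its part in the missing detection was not tested. Where detected, the unscaled signal was 2.63 to 7.98 times this SD for miR-103-3p and 3.40 to 13.0 times for miR-107-3p. Both members passed the filter for testing, detection on at least 3 arrays of at least 1 age, along with 285 miRNAs in all.

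Signals are given on the log2 scale after each array was brought to the same 75th percentile, with a floor of 1.92. At 4 weeks the scaled log2 signal of miR-103-3p was at the floor of 1.92 on replicate 1, 3.92 on replicate 2, 3.34 on replicate 3 and 2.68 on replicate 4. At 8 weeks it was 2.44, 3.32, 1.92 (the floor) and 3.10 on replicates 1 to 4. At 36 weeks it was 3.46, 4.07, 4.18 and 1.92 (the floor) on replicates 1 to 4. In each of these ages 1 array at the floor stood below the other 3, and the highest 2 of the 16 arrays were replicates 2 and 3 of 36 weeks.

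At 58 weeks miR-103-3p was 3.39, 1.92 (the floor), 4.06 and 2.92 on replicates 1 to 4, with replicate 3 the one array on which it was detected. Its log2 signal averaged 2.96 ± 0.86 (SD, n = 4) in 4-week serum, 2.70 ± 0.64 in 8-week serum, 3.41 ± 1.04 in 36-week serum and 3.07 ± 0.90 in 58-week serum. Ordered by level the ages ran 8, 4, 58 and 36 weeks, and no neighbours in that order differed by more than their spread. All ages overlapped, since each held an array at the floor.

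For miR-107-3p the scaled log2 signal at 4 weeks was 2.67, 4.63, 4.36 and 4.24 on replicates 1 to 4. At 8 weeks it was 3.35, 4.10, 3.09 and 3.75. At 36 weeks it was 4.48, 4.59, 4.77 and 1.92 (the floor). The lowest array of each of these ages was the same one as for miR-103-3p, and 36-week replicate 4 was the only one of the 16 arrays at the floor.

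At 58 weeks miR-107-3p was 4.60, 3.49, 4.83 and 3.96 on replicates 1 to 4. The log2 means were 3.98 ± 0.88 (SD, n = 4) in 4-week serum, 3.57 ± 0.44 in 8-week serum, 3.94 ± 1.35 in 36-week serum and 4.22 ± 0.61 in 58-week serum. Ordered by level the ages ran 8, 36, 4 and 58 weeks, again with no neighbours apart by more than their spread and with all ages overlapping. Here too the lowest array, replicate 2 at 58 weeks, was the one on which neither member was detected.

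**Figure D1:**
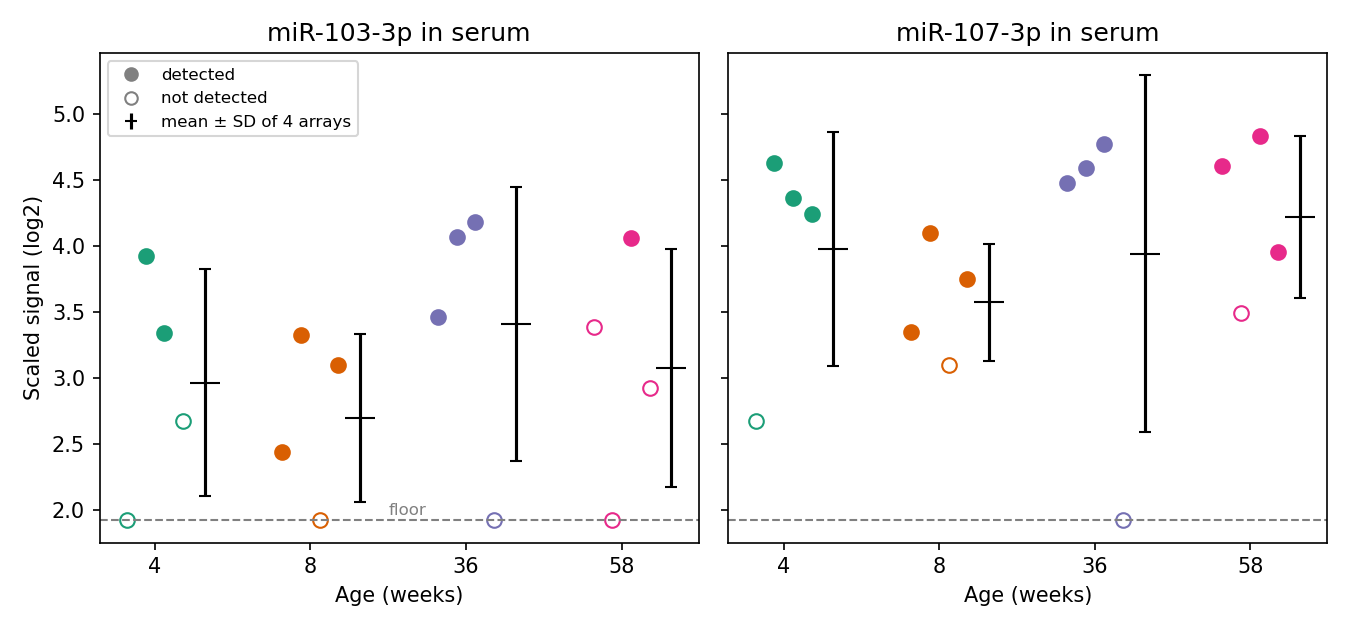
Scaled log2 signal of miR-103-3p and miR-107-3p (y axis) on each array, by age in weeks (x axis). Filled points are arrays with detection, open points arrays without, the dashed line is the floor at 1.92, and the black bars give the mean ± SD of the 4 arrays. Every age has 1 array, without detection, that lies low for both miRNAs.

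The first question is whether the pair's level in serum follows age. Neither miRNA passed the test for a trend. Per doubling of age, the log2 signal of miR-103-3p had a slope of 0.10 ± 0.14 (SE, adjusted p = 0.602) and that of miR-107-3p one of 0.083 ± 0.14 (adjusted p = 0.670). The median slope over the 285 tested miRNAs was 0.12, and 0.351% of them passed. That share, 1 miRNA of 285, depended on the arrays and their weighting: 146 of 272 passed without the 3 arrays marked for evaluation and 196 of 285 with array weights, and neither member passed the trend in these fits. In the F test for any difference among the 4 ages the adjusted p was 0.794 for miR-103-3p and 0.843 for miR-107-3p, where 0.351% of all tested miRNAs passed.

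The slopes depended on the settings. With slide as a block they were -0.34 for miR-103-3p (adjusted p = 0.761) and -0.14 for miR-107-3p (adjusted p = 0.904). With normexp background correction, which adds 50 to each signal, both passed, at 0.19 for miR-103-3p (adjusted p = 0.0307) and 0.17 for miR-107-3p (adjusted p = 0.0316), among 22 miRNAs that passed there. The normexp slopes were fitted without slide, so they cannot be read as age alone.

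**Figure D2:**
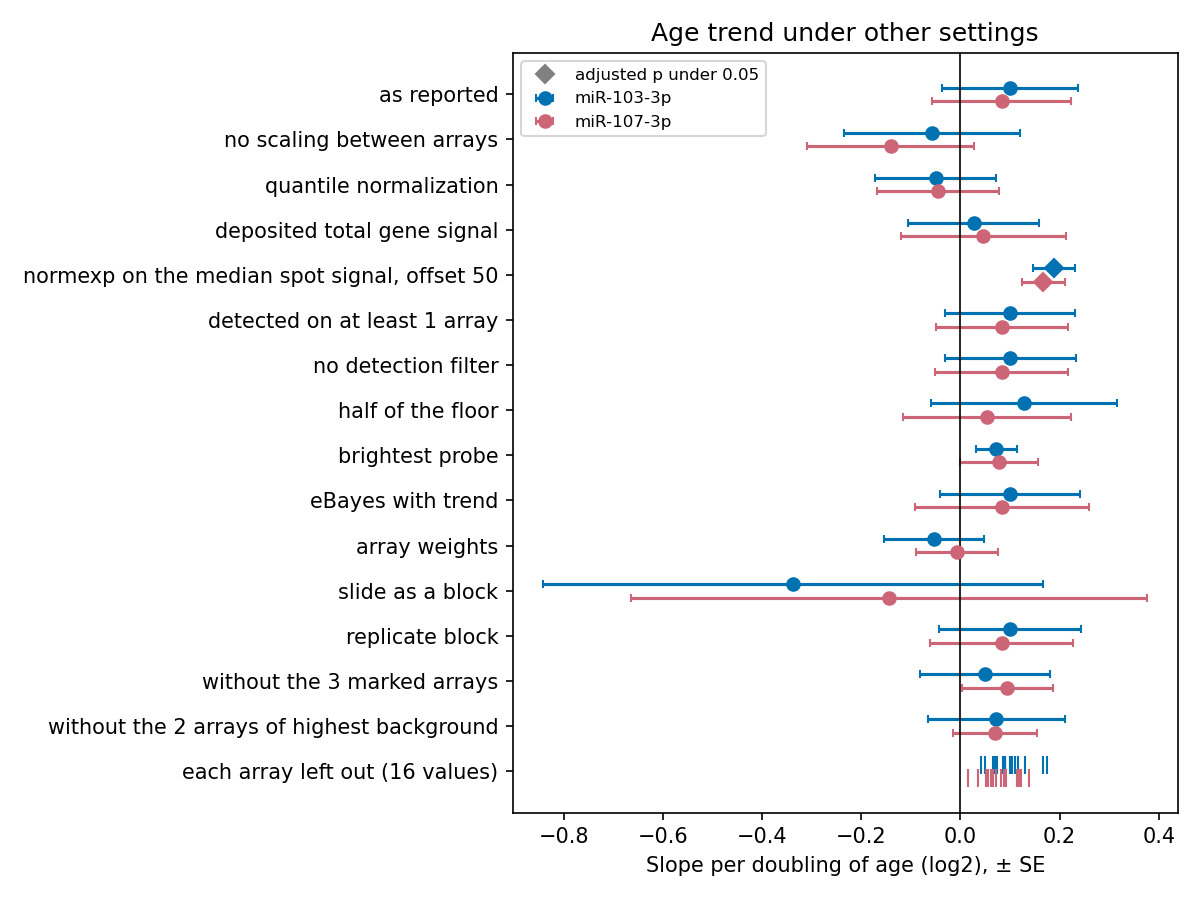
Slope per doubling of age in log2 units (x axis) for miR-103-3p and miR-107-3p as reported and under each other setting (y axis), with bars of ± 1 SE. Diamonds mark slopes with an adjusted p under the threshold, reached with normexp. The bottom row shows the slopes with each of the 16 arrays left out, from 0.042 to 0.18 for miR-103-3p and from 0.015 to 0.14 for miR-107-3p.

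Between 8 and 4 weeks, a span that covers puberty and lies within slide 1, neither member passed. The log2 difference was -0.27 ± 0.63 (SE) for miR-103-3p, with a 95% interval of -1.62 to 1.08 (adjusted p = 0.881). It was -0.40 ± 0.64 for miR-107-3p, with an interval of -1.78 to 0.97 (adjusted p = 0.798). Of all tested miRNAs 0% passed, and their median difference was -0.72. Both estimates lay below 0, nearer to it than the median miRNA, and above 0 under quantile normalization, at 0.41 for miR-103-3p and 0.24 for miR-107-3p. Without 36-week replicate 4, whose removal changes which miRNAs set the scaling, the differences were -0.030 for miR-103-3p and -0.021 for miR-107-3p.

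Between 58 and 36 weeks, within slide 2, the estimates of the members had opposite signs and neither passed. The log2 difference was -0.33 ± 0.63 (SE) for miR-103-3p, with an interval of -1.68 to 1.01 (adjusted p = 0.774), and 0.28 ± 0.64 for miR-107-3p, with an interval of -1.09 to 1.65 (adjusted p = 0.819). The median of all tested miRNAs was -0.52 and 0% passed. Without 36-week replicate 4 the difference of miR-107-3p was -0.18, so its sign rested on that array, and that of miR-103-3p was -0.53. With array weights, whose estimation stopped before convergence, miR-103-3p passed at -1.14 (adjusted p = 0.0376).

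Between 58 and 4 weeks, the widest span, neither member passed. miR-103-3p had a log2 difference of 0.11 ± 0.63 (SE). As a fold this is 1.08, with a 95% interval of 0.424 to 2.74 (adjusted p = 0.998). miR-107-3p differed by 0.24 ± 0.64, a fold of 1.18 with an interval of 0.458 to 3.06 (adjusted p = 0.998). Of all tested miRNAs 0.351% passed, and the median difference was -0.0031. The intervals are wide on both sides of no change, so they do not show that the ages are alike. Without 4-week replicate 1 the differences turned to -0.26 for miR-103-3p and -0.19 for miR-107-3p.

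The 36-week arrays were set against both younger ages. Against 4 weeks the log2 difference was 0.44 ± 0.63 (SE) for miR-103-3p (adjusted p = 0.659) and -0.036 ± 0.64 for miR-107-3p (adjusted p = 0.963), with a median of 0.32 over all tested miRNAs, of which 0.351% passed. Without 36-week replicate 4 that of miR-107-3p was 0.51. That of miR-103-3p was 0.079 when 4-week replicate 1 was left out and 0.76 when 4-week replicate 2 was. Against 8 weeks the difference was 0.71 for miR-103-3p (adjusted p = 0.429), the largest of its 6 pairs and equal to the median of all tested miRNAs, and 0.37 for miR-107-3p (adjusted p = 0.686). Of all tested miRNAs 0% passed between 36 and 8 weeks. With array weights both members passed there, at 1.11 for miR-103-3p (adjusted p = 0.0213) and 0.90 for miR-107-3p (adjusted p = 0.0227), among 180 miRNAs that did, while under quantile normalization the differences were -0.17 and -0.11.

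Between 58 and 8 weeks miR-107-3p had its largest difference, 0.65 ± 0.64 (SE, adjusted p = 0.497), and miR-103-3p differed by 0.38 ± 0.63 (adjusted p = 0.699). The estimate of miR-103-3p was 0.049 without 58-week replicate 3, and it lay below 0 with no scaling between arrays (-0.080), quantile normalization (-0.60), the deposited total signal (-0.020) and array weights (-0.023). The median over all tested miRNAs was 0.71 and 0% passed. In all 6 pairs the arrays of the later and the earlier age overlapped for both members. For miR-103-3p this was fixed in advance, since each age held an array at the floor. The share of all tested miRNAs that overlapped was not counted, so the overlap is a description.

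**Figure D3:**
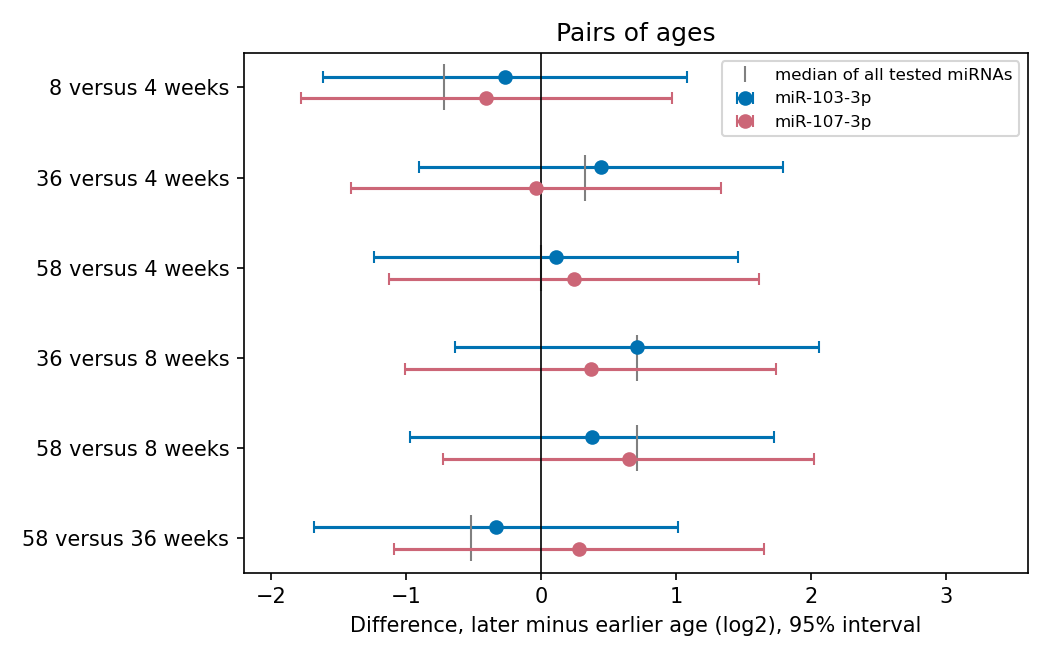
Difference in log2 scaled signal, later minus earlier age (x axis), for the 6 pairs of ages (y axis), with 95% intervals from limma. Grey ticks give the median over the 285 tested miRNAs. Every interval of both members includes 0.

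miR-103-3p and miR-107-3p varied together from array to array. Over the 16 arrays Pearson's r was 0.888 and Spearman's rho 0.935 (permutation p = 1e-05 for both, which is the lowest value possible with 100000 permutations, and adjusted p = 5e-05 over 5 relations). Without the 2 arrays farthest from the median of miR-107-3p, 36-week replicate 4 and 4-week replicate 1, r was 0.914. The 8 arrays of slide 1 gave 0.905 and the 8 of slide 2 gave 0.875. It was 0.942 over the 13 arrays not marked for evaluation and 0.921 for deviations from the age means. On 4 of the 16 arrays miR-103-3p was at the floor, so those values are tied. The points share array, scaling and background, and the mature sequences differ at the 1 base given above. Whether the probes of one also bind the other was not tested.

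**Figure D4:**
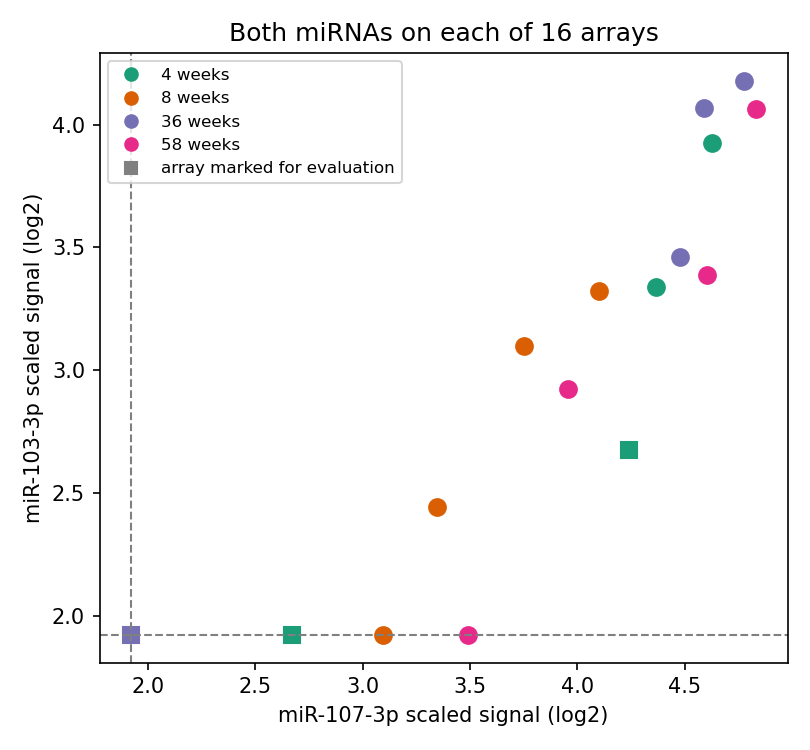
Scaled log2 signal of miR-103-3p (y axis) against that of miR-107-3p (x axis) on each of the 16 arrays, coloured by age, with squares for the 3 arrays marked for evaluation and dashed lines at the floor. Above the floor the arrays of all 4 ages lie along the same rising line. On 1 array per age miR-103-3p is at the floor, and on 36-week replicate 4 both miRNAs are.

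The background of an array was set against both members. This relation was chosen after seeing the data, so its p-values are a description. Against the log2 SD of negative-control spots, r was -0.528 for miR-103-3p (permutation p = 0.0275, adjusted p = 0.0458) with rho of -0.289 (permutation p = 0.274, adjusted p = 0.343). For miR-107-3p r was -0.686 (permutation p = 0.00712, adjusted p = 0.0178) with rho of -0.212 (permutation p = 0.429, adjusted p = 0.429). Taken across ages, these relations rested on 36-week replicate 4 and 4-week replicate 1, since without them r was -0.173 for miR-103-3p and 0.107 for miR-107-3p. For deviations from the age means they were stronger, at -0.806 for miR-103-3p and -0.894 for miR-107-3p over 16 arrays. Without the same 2 arrays the deviations gave -0.590 for miR-103-3p and -0.415 for miR-107-3p over 14 arrays, so within ages r stayed below 0. Over the 13 arrays not marked for evaluation r was -0.062 and 0.10. The arrays of slide 1 alone gave -0.639 for miR-103-3p and -0.532 for miR-107-3p, and those of slide 2 gave -0.592 for miR-103-3p and -0.876 for miR-107-3p.

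Red cells are a known source of miRNA in serum, and miR-451a, made almost wholly in red cells, was set beside the pair. Over the 16 arrays log2 miR-451a correlated with miR-103-3p at r = 0.320 and rho = 0.323 (permutation p = 0.228 and 0.220, adjusted p = 0.228 and 0.343). With miR-107-3p r was 0.479 and rho 0.421 (permutation p = 0.0603 and 0.106, adjusted p = 0.0754 and 0.265). Without the 2 arrays farthest from the median of miR-451a, r was 0.376 for miR-103-3p and 0.473 for miR-107-3p. It differed between slides, at 0.0056 on slide 1 and 0.761 on slide 2 for miR-103-3p and 0.240 on slide 1 and 0.812 on slide 2 for miR-107-3p. Of the 6 erythrocyte markers listed, 4 are on the array, and 3 were detected on at least 1 array of every age. miR-451a and miR-486a-5p were detected on all 16 arrays, miR-144-3p on 6 and miR-144-5p on none. Their summed scaled signal ran from 4238 to 7493 in 4-week serum, 2480 to 4712 in 8-week serum, 2685 to 5566 in 36-week serum and 3576 to 6774 in 58-week serum. The part of red cell RNA in the members' levels was not tested.

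The distance between the members, log2 miR-103-3p minus log2 miR-107-3p, was taken to ask whether age moved one apart from the other. Its size cannot be read, since it sets different probes against each other. The distance also includes 1 array per age with a member at the floor, so a change in it between ages cannot be read plainly either. It averaged -1.01 ± 0.40 (SD, n = 4) in 4-week serum, -0.88 ± 0.22 in 8-week serum, -0.53 ± 0.42 in 36-week serum and -1.15 ± 0.33 in 58-week serum. At each age 1 array had a member at the floor, and on 36-week replicate 4 both were, which gives 0. On the 12 arrays with both above the floor it ran from -1.57 to -0.52, with a median of -0.84.

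No pair of ages passed for this distance. After adjustment over 6 pairs 1 pair alone could not have passed, whatever its values, so nothing follows about stability. The largest change was -0.61 for 58 against 36 weeks (2-sided exact permutation p = 0.0571, adjusted p = 0.343 over 6 pairs), where the smallest p that 70 assignments allow is 0.0286. Without 36-week replicate 4 it was -0.35 (exact permutation, adjusted p = 0.686). The other 5 pairs had changes of -0.27 to 0.48 and adjusted p-values of 0.386 to 0.629.

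Each member is read by a pair of probes of 13 to 15 unflagged spots per array. For miR-103-3p, A_54_P1341 lay at the floor on 3 of 16 arrays, with a median unscaled signal of 16.6, and A_54_P1342 at the floor on 10 of 16, with a median of 2.26. For miR-107-3p, A_54_P1420 lay at the floor on 1 array (median 27.7) and A_54_P1421 on 4 (median 6.78). The slopes per doubling of age were 0.19 for A_54_P1341 and 0.037 for A_54_P1342, and 0.040 for A_54_P1420 and 0.054 for A_54_P1421. All 4 estimates were above 0. They have no SE or test, and A_54_P1342 was at the floor on 10 of 16 arrays, so the shared sign does not show that the probes agree.

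The probes of each member had opposite signs between 58 and 4 weeks, where A_54_P1341 differed by 0.57 and A_54_P1342 by -0.036, and A_54_P1420 by 0.16 and A_54_P1421 by -0.047. Between 58 and 36 weeks A_54_P1341 differed by 0.19 and A_54_P1342 by -0.15, and A_54_P1420 by 0.54 and A_54_P1421 by -0.12. The probe with the lower signal sits at the floor on more arrays, where no difference can be measured. On 36-week replicate 4 all 4 probes had signals below 0 after background subtraction, from -130 to -66.9.

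**Figure D5:**
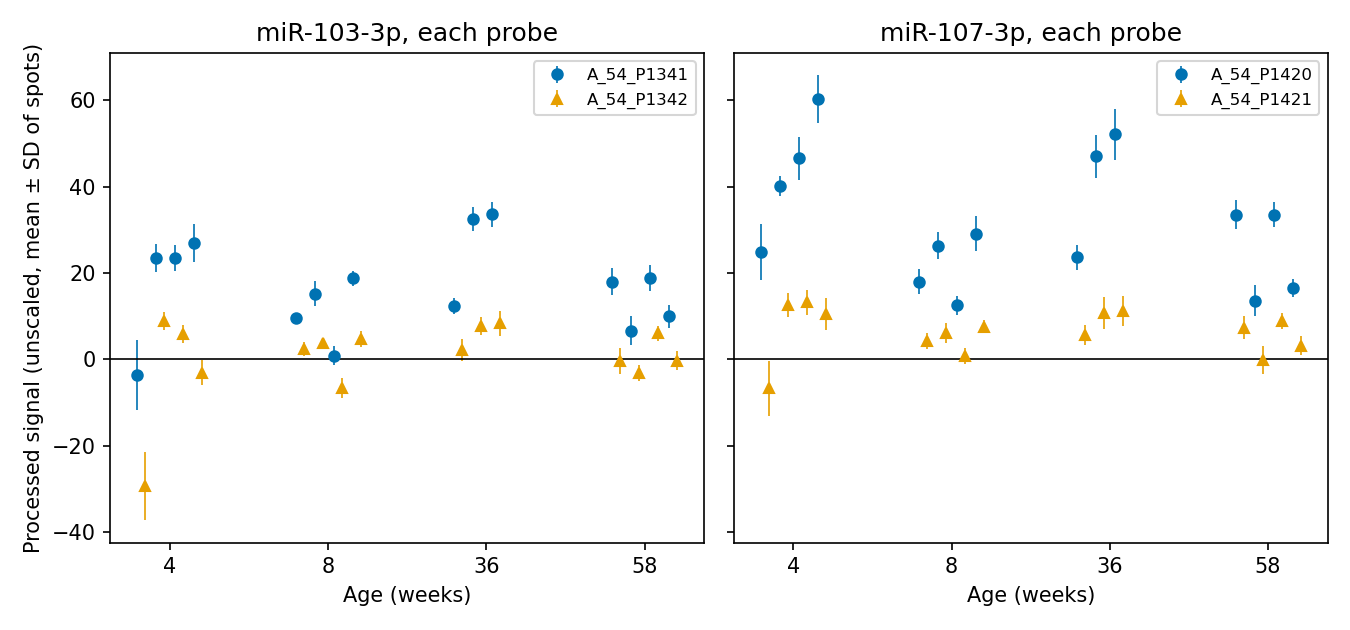
Unscaled processed signal (y axis, mean ± SD over the spots of a probe) of the probes of miR-103-3p and of miR-107-3p on each array, by age in weeks (x axis), for 15 arrays. 36-week replicate 4, with all 4 probes between -130 and -66.9, is left off the axis. In both panels the probe drawn as triangles lies below the other probe on each array shown.

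The miRNAs whose signal was most like that of each member over the 16 arrays were ranked by Pearson's r, as a description with no test. For miR-103-3p the first was miR-107-3p (0.888), followed by miR-378d (0.791), miR-8090 (0.790), miR-26a-5p (0.788) and miR-29c-3p (0.780). In that order they were detected on 12, 8, 6, 13 and 14 of the 16 arrays. For miR-107-3p the first was miR-103-3p, followed by miR-130a-3p (0.882), miR-29c-3p (0.849), miR-26a-5p (0.834) and miR-93-5p (0.804). These were detected on 9, 12, 14, 13 and 15 of the 16 arrays. The median r over the other 284 tested miRNAs was -0.039 for miR-103-3p and -0.0074 for miR-107-3p. For deviations from the age means, miR-130a-3p correlated with miR-107-3p at 0.924 and miR-107-3p with miR-103-3p at 0.921. Over the 13 arrays not marked for evaluation the member was the first of its partner's list of 5, at 0.942, with the others at 0.717 to 0.824. All these points share arrays, scaling and background.

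Part of the seed family was measured beside the pair. The list was set by name, not from the 10 names with the seed AGCAGCA. Of 7 listed members, 4 were tested, and 0 of them passed in any of the 6 pairs, the trend or the F test, where 0% to 0.351% of all tested miRNAs passed. Their slopes per doubling of age were -0.011 for miR-15a-5p (adjusted p = 0.955), -0.032 for miR-15b-5p (adjusted p = 0.869), -0.17 for miR-16-5p (adjusted p = 0.624) and -0.25 for miR-497a-5p (adjusted p = 0.525). All 4 estimates lay below 0, with a median of -0.10, while those of miR-103-3p and miR-107-3p lay above 0. None of these slopes passed, so no difference in direction between the pair and the family is shown. Of the other listed names, whose seeds were not compared here, miR-322-5p was detected on 4 arrays, miR-195a-5p on 2 and miR-503-5p on 0.

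Opposite arms of a hairpin are usually broken down after processing, and the 2 that could be looked up here went undetected. miR-103-1-5p and miR-107-5p were each detected on 0 of 16 arrays. The arm miR-103-2-5p is not among the names on the array, so it could not be looked up. For comparison, 572 of all 1881 miRNAs had a detection call on any of the 16 arrays, so most had none. Whether breakdown of the arms played a part in their absence was not tested.

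Other miRNAs tied to insulin, glucose or lipid metabolism were listed for context. Of 20 on the array, 14 were tested and 0 passed in any comparison, in either direction, where 0% to 0.351% of all tested miRNAs passed, a share near which 0 of 14 is no result about the list. The smallest p for the trend were those of miR-34a-5p, a p53-induced miRNA (slope 0.36, adjusted p = 0.237), miR-29b-3p, of a family that targets collagens (0.43, adjusted p = 0.346), miR-375-3p, a miRNA of pancreatic islets (0.44, adjusted p = 0.445), and miR-222-3p (0.29, adjusted p = 0.464). The median slope of the 14 was 0.15, against 0.12 over all tested miRNAs, and 8 of 14 lay above 0. Their median difference lay above that of all tested miRNAs in some pairs and below it in others. It was 0.64 between 58 and 4 weeks (all tested -0.0031), -0.0040 between 36 and 4 weeks (all tested 0.32) and 0.17 between 36 and 8 weeks (all tested 0.71). In the remaining pairs it was -0.33 between 8 and 4 weeks (all tested -0.72), 0.72 between 58 and 8 weeks (all tested 0.71) and 0.34 between 58 and 36 weeks (all tested -0.52).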

How the data were processed

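Serum miRNA was measured on 16 single-colour arrays. The spot intensities are the authors' deposited values, made with Agilent Feature Extraction 11.5 per the submitters' processing notes, already background-subtracted per the file headers. Outlier flags and detection calls (0 or 1 in the deposited files) were used as given. Flagged spots were left out, and the intensity was averaged over spots of a probe and then over probes of a miRNA. Arrays were then brought to 1 common 75th percentile, taken over the 24 miRNAs with detection on every one of the 16 arrays. A floor of 3.79 (log2 1.92) replaced lower values before the log2 step. It is the median over arrays of the lowest positive signal with detection.

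The 285 miRNAs detected on at least 3 arrays of at least 1 age were fitted by lmFit and eBayes of limma (version 3.58.1, R version 4.3.3): a slope per doubling of age, an F test and 6 pairs of ages from 1 mean per age. P-values were adjusted by Benjamini-Hochberg over the 285 miRNAs, with a threshold of 0.05, and all adjusted p-values for miRNAs are limma's unless called permutation. The number of arrays limits the precision. The fits were run on simulated data with known changes over the span of ages. Of log2 changes of 1, 3.42% were called between 58 and 4 weeks and 8.16% by the trend. Of log2 changes of 2, 29.7% and 40.5% were called, so most changes of these sizes were missed in the simulation. Its values were drawn independently around each miRNA's mean, with no floor, slide effect or background shared by an array. The rates are over miRNAs drawn from all 285, so they are not the rates for this pair, which lies near the floor. Members and lists were chosen with earlier results of these data known. The likeness of miRNAs was ranked by Pearson's r, with 5 named per member, and of the metabolic list the 4 with the smallest trend p are named. The relations across arrays were chosen after seeing the data. Replicate numbers were not used to pair the samples in the reported fits, and whether they do is not known.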

Additional observations from a re-analysis of the deposited data

Results flagged for a closer look

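In 8 of the 72 sets of 4 arrays examined, a single array lay far from its 3 companions, where independent sets would give about 3.6 by chance. The sets are not independent, since several of the miRNAs were named for their likeness to the pair over these same arrays, so the count is a description. On 36-week replicate 4 the scaled log2 signal of miR-107-3p was at the floor of 1.92, with 4.48 to 4.77 on the other 3 arrays. On the same array miR-26a-5p, miR-29c-3p and miR-130a-3p, which are among the miRNAs most like the pair, were also at 1.92, and the negative-control SD was 59.3, against 2.76 to 4.39 on the others. miR-8090 was at 1.92 on 8-week replicate 3, with 3.25 to 3.46 on the other 3 arrays, and 2.51 on 58-week replicate 2, with 3.53 to 3.63 on the others. Both are arrays on which neither member was detected. On 8-week replicate 3 the negative-control spots had an SD of 3.54, against 1.82 to 2.01 on the others.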

How the results depend on the processing

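Of 546 alternative estimates for the members and the distance between them, 63 had the opposite direction, 326 another value of the same direction, and 157 equalled the reported value (within 1e-05), many by construction. Past the threshold were 5 of these and 1 of 58 alternative F tests. Both members lie near the detection limit, which limits what these arrays can measure. No scaling between arrays turned the slopes (-0.057 for miR-103-3p, -0.14 for miR-107-3p), miR-103-3p at 58 against 4 and 8 weeks (-0.61, -0.080), miR-107-3p at 58 against 36 and 4 weeks (-0.084, -0.79) and the distance at 58 against 4 weeks (0.18). Quantile normalization turned the slopes (-0.050, -0.045), miR-103-3p at 36 against 8, 58 against 4, 58 against 8 and 8 against 4 weeks (-0.17, -0.19, -0.60, 0.41), and miR-107-3p in all 6 pairs (36 against 4 weeks 0.12, 36 against 8 -0.11, 58 against 36 -0.31, 58 against 4 -0.19, 58 against 8 -0.42, 8 against 4 0.24). The deposited total signal turned miR-103-3p at 58 against 4 and 8 weeks (-0.30, -0.020) and miR-107-3p at 58 against 36 and 4 weeks (-0.026, -0.038). Normexp made both slopes pass (0.19 and 0.17) and turned miR-103-3p at 58 against 36 and 8 against 4 weeks (0.16, 0.11), miR-107-3p at 36 against 4 weeks (0.46) and the distance at 36 against 8, 58 against 36, 58 against 4 and 58 against 8 weeks (-0.025, 0.030, 0.12, 0.0052). Array weights, whose iteration stopped before convergence, made miR-103-3p pass at 36 against 8 weeks (1.11), 58 against 36 weeks (-1.14) and in the F test (limma adjusted p = 0.0285), and miR-107-3p at 36 against 8 weeks (0.90). The number of all tested miRNAs that passed with these weights is given only for the trend and for 36 against 8 weeks. It was raised in both, so no pass is read as particular to a member. Array weights also turned the slopes (-0.054, -0.0072), miR-103-3p at 58 against 4 and 8 weeks (-0.60, -0.023) and miR-107-3p at 36 against 4, 58 against 36 and 58 against 4 weeks (0.19, -0.52, -0.33).

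With slide as a block, which could not be fitted for pairs since each slide holds whole ages, the slopes were -0.34 and -0.14. The brightest probe turned the distance at 36 against 8 weeks (-0.073) and miR-107-3p at 36 against 4 weeks (0.017), and a lower floor the distance at 58 against 4 weeks (0.012). Without the 3 marked arrays, miR-103-3p at 58 against 4 weeks was -0.28, and miR-107-3p 0.16 at 36 against 4 and -0.11 at 58 against 36 weeks. Without the 2 arrays of highest background these were -0.12, 0.13 and -0.095. The causes were not tested.

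With 1 array left out, miR-103-3p ran from -0.68 to 0.067 at 58 against 36 weeks, -0.26 to 0.51 at 58 against 4 and -0.63 to 0.046 at 8 against 4. miR-107-3p ran from -0.49 to 0.51 at 36 against 4, -0.18 to 0.58 at 58 against 36 and -0.19 to 0.49 at 58 against 4. The distance ran from -0.32 to 0.022 at 58 against 4 and -0.054 to 0.23 at 8 against 4. The other estimates kept their direction in these fits, with miR-103-3p from 0.079 to 0.76 at 36 against 4, 0.45 to 0.91 at 36 against 8 and 0.049 to 0.78 at 58 against 8 weeks, and miR-107-3p from 0.068 to 0.56 at 36 against 8, 0.35 to 0.89 at 58 against 8 and -0.84 to -0.021 at 8 against 4 weeks. No member passed in any of them. The number of miRNAs that passed the trend was 1 as reported, 1 to 3 with 1 array left out, 0 with slide as a block, 146 without the 3 marked arrays and 196 with array weights.

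Of 24 pairs of same-numbered samples 11 correlated at r over 0.1 (-0.896 to 0.812). These are correlations of deviations from the age means, which are not independent within an age. They cannot show whether the numbers pair samples. The fit with replicate number as a block gave the same estimates (miR-103-3p at 58 against 4 weeks 0.11, adjusted p = 0.999, and miR-107-3p 0.24) and changed no call of a member. The 75th percentile over all miRNAs was not run, since it was below 0 on 58-week replicate 3. Normexp used the median spot signal.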
